A study of Sus scrofa with 12 samples.

Results

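The interleukin-1 ligands IL1A and IL1B, 2 of 6765 genes named on the array, were followed in the endometrium of pregnant and non-pregnant sows. Their members were all probe sets, groups of short probes read together as 1 value, to which the platform annotation gave IL1A or IL1B as the only gene symbol. There were 4 of them among 23999 probe sets measured: 2 for IL1A, with identifiers ending in S1_at and S2_at, and 2 for IL1B, with identifiers ending in A1_s_at and S1_at. They are called IL1A-S1, IL1A-S2, IL1B-A1 and IL1B-S1 here. IL1A (gene identifier 397094) and IL1B (397122) lie beside each other in the RefSeq gene table of the pig assembly Sscrofa11.1, with 0 genes between them. A genome build for the array design was not named, and coordinates are therefore left out.

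The study hybridised endometrial RNA of 12 sows, 1 Affymetrix porcine array per sow, on Day 14 after insemination. The pregnant group held 3 Yorkshire sows (numbers 2, 4 and 12) and 3 Landrace sows (6, 8 and 10). The non-pregnant group had been inseminated with inactivated semen and held 3 Yorkshire sows (1, 3 and 11) and 3 Landrace sows (5, 7 and 9). In all groups the uterine horns had been flushed, and pieces of endometrium without the muscle layer had been taken along both horns. The tissue held epithelium, stroma, vessels and immune cells together, with any conceptus tissue that stayed attached after flushing in the pregnant sows. The ages of the sows were not given in the sources used here.

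Interleukin-1 alpha and beta are cytokines that bind the same receptor, IL1R1, and signal through the adaptor MYD88 and IRAK kinases to the transcription factor NF-kB. The beta form is made as an inactive precursor that caspase-1 cuts, whereas the precursor of the alpha form is already active and often stays in the cell. In the pig, the elongating conceptus also secretes an interleukin-1 beta that is encoded by a separate, near-identical gene, IL1B2, and that acts on the uterus around the time the pregnancy is recognised. The array annotation assigned 0 probe sets to IL1B2, which RefSeq did not place on a chromosome. Which of the copies the IL1B probe sets read could not be told apart, so IL1B values below are those of its probe sets and may include IL1B2. By the manufacturer's naming, a probe set ending in _s_at has probes shared by several transcripts.

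All values below are the deposited log2 expression values, on which a step of 1 is a doubling, and differences are pregnant minus non-pregnant unless another order is named. A difference was called when its p in limma, adjusted over all 23999 probe sets (Benjamini-Hochberg), was under 0.05. The arrays had like distributions, and each correlated with its nearest array at r between 0.975 and 0.992. Sow 7 lay apart from the other non-pregnant sows, at 20.4 on the first principal component (36.8% of the variance) and 43.5 on the second (17.3%). Sow 12 lay at -18.9 on the first component, against 15.5 to 43.8 in the other pregnant sows, and the array closest to it was that of non-pregnant sow 11. A control for RNA integrity, the GAPDH probe set at the 3' end minus that at the 5' end, ran from 0.092 to 0.41 in pregnant and from 0.20 to 0.35 in non-pregnant sows. As for the labelled tissue, the stromal genes VIM and DCN had means of at least 11.9 and 12.4 in each pregnancy group, and the epithelial keratin KRT8 had means of at least 10.7.

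IL1A was lower in pregnant than in non-pregnant endometrium by both of its probe sets, by 2.73-fold and 2.43-fold, and IL1B was not called in either direction. On IL1A-S1, IL1A measured 7.25, 6.59 and 6.87 in the non-pregnant Yorkshire sows 1, 3 and 11, and 7.27, 7.14 and 7.32 in the non-pregnant Landrace sows 5, 7 and 9. It measured 5.43, 6.09 and 6.74 in the pregnant Yorkshire sows 2, 4 and 12, and 5.34, 4.92 and 5.22 in the pregnant Landrace sows 6, 8 and 10. The 6 non-pregnant sows were the higher group, and the groups overlapped through pregnant sow 12, which lay above non-pregnant sow 3. The group means were 5.62 ± 0.67 (SD, n = 6) in pregnant and 7.07 ± 0.29 (SD, n = 6) in non-pregnant sows.

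On IL1A-S2, IL1A measured 7.66, 6.97 and 7.22 in the non-pregnant Yorkshire sows 1, 3 and 11, and 7.65, 7.06 and 7.36 in the non-pregnant Landrace sows 5, 7 and 9. It measured 6.21, 5.89 and 6.87 in the pregnant Yorkshire sows 2, 4 and 12, and 5.73, 5.95 and 5.59 in the pregnant Landrace sows 6, 8 and 10. Here every pregnant sow lay below every non-pregnant sow, with sow 12 again the highest of the pregnant sows, and 1.4% of all probe sets had that pattern. The group means were 6.04 ± 0.46 (SD, n = 6) and 7.32 ± 0.29 (SD, n = 6).

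**Figure D1:**
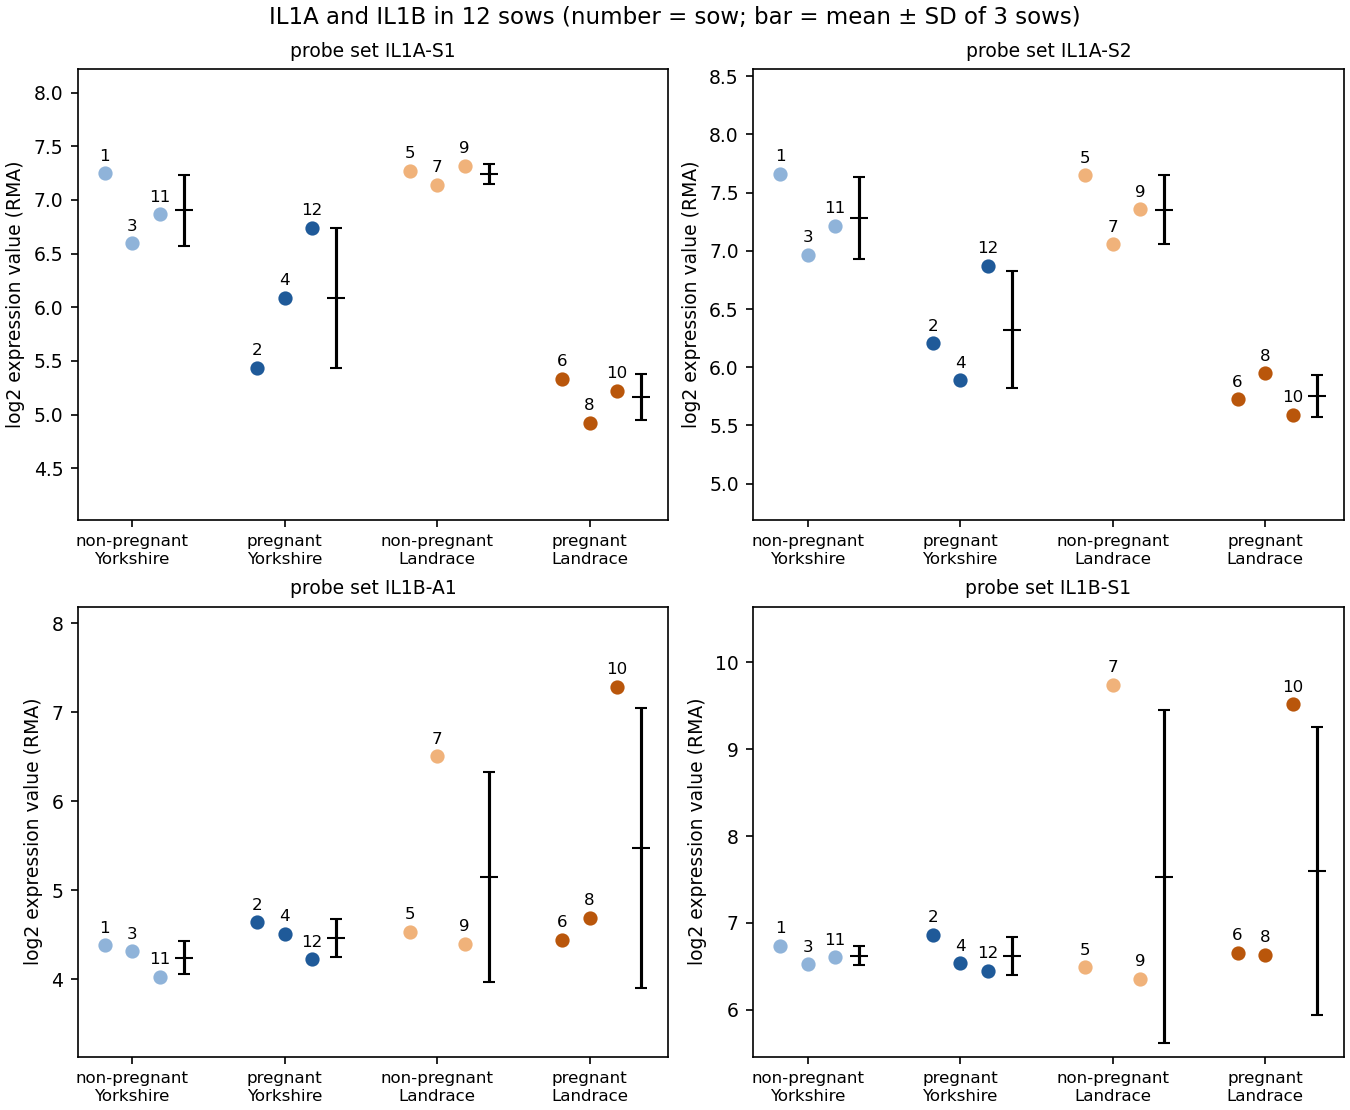
Log2 expression value (vertical axis) of the 4 probe sets in the 4 groups of pregnancy by breed; each point is 1 sow with its number, and the bar beside each group is the mean ± SD of 3 sows. IL1A is lower in both pregnant groups, with sow 12 the highest of the pregnant sows, and IL1B stands high in sows 7 and 10 only.

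The difference was -1.45 ± 0.26 (SE, 95% interval -2.02 to -0.88) on IL1A-S1 and -1.28 ± 0.19 (SE, -1.70 to -0.86) on IL1A-S2. The adjusted p in limma was 0.00916 and 0.00584. Both IL1A probe sets were thus called lower, against a background of 3.94% of all probe sets called lower and 7.88% called in either direction. Ordered from the most negative difference of the 23999 probe sets, they ranked 46 and 73. Over all splits of the 12 sows, 6 against 6, a two-sided exact permutation test gave p = 0.00433 and p = 0.00216, of which the second is the smallest the design allows. Permuted within breeds, the exact test gave p = 0.01 and p = 0.005, against a smallest possible 0.005. In each IL1A probe set, all 6 pregnant sows lay below the non-pregnant mean, a weak criterion that 5 pregnant sows met on each uncalled IL1B probe set. Across the 12 sows the IL1A probe sets correlated with each other at r = 0.930, and at r = 0.596 once the mean of each group was taken off, which describes 2 measurements of the same RNA.

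The IL1A calls held with any 1 sow left out. The difference then ran from -1.67 to -1.33 on IL1A-S1 and from -1.44 to -1.18 on IL1A-S2, with adjusted p in limma of at most 0.0273 and 0.0183. Without sow 12 the differences were the most negative of these, -1.67 and -1.44. Without sows 7 and 12 together they were -1.64 and -1.49, and without sows 7 and 10 they were -1.36 and -1.24.

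**Figure D2:**
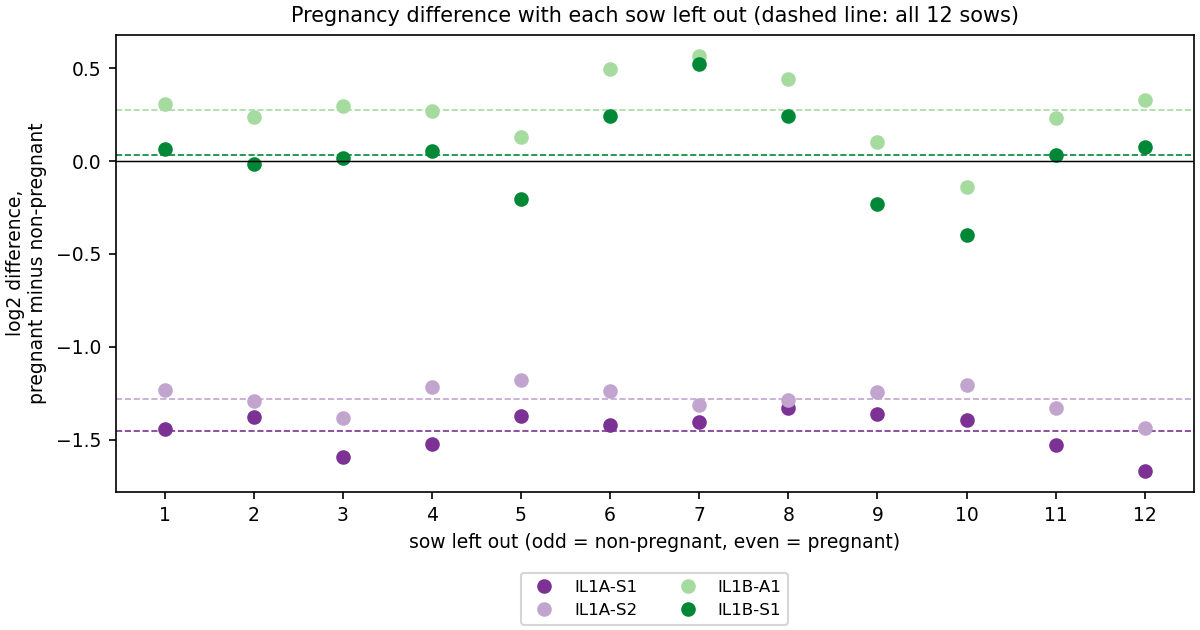
Log2 difference, pregnant minus non-pregnant, of each probe set (vertical axis) when the sow on the horizontal axis is left out; dashed lines give the value with all 12 sows. The IL1A points stay between -1.67 and -1.18, and the IL1B points lie on both sides of 0, lowest without sow 10 and highest without sow 7.

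In bulk tissue, fewer cells of a type that makes IL1A and less IL1A RNA per cell cannot be told apart. Of 11 measured luminal and glandular epithelium markers, the keratin KRT8 fell by 0.83 (adjusted p = 0.0422) and the tight junction gene CLDN7 fell by 0.47 (adjusted p = 0.0272), while the mucin MUC1 rose by 0.29 (adjusted p = 0.0442). Of this list 18.2% were thus called lower and 9.09% higher, beside 7.48% and 4.58% of all genes. With 1 sow left out, between 0 and 3 of the epithelium markers were called lower and between 0 and 2 higher. The mean level of the list was 9.30 to 9.98 in pregnant and 9.83 to 10.0 in non-pregnant sows. Of 5 neutrophil markers 1 was called (20% higher, beside 4.58% of all genes). It was S100A9, a calgranulin that epithelia can also make, which rose by 7.05 (adjusted p = 0.00517). S100A9 was 12.1 to 12.8 in 5 pregnant sows and 7.72 in sow 12, which also had the highest IL1A of the pregnant sows on both probe sets. Without pregnancy, S100A9 reached 9.35 in sow 7 and no more than 3.91 elsewhere. IL1A in sow 7 was 7.14 on IL1A-S1 and 7.06 on IL1A-S2, neither the highest nor the lowest of its pregnancy group. A link between S100A9 and IL1A was not tested. Of 9 measured endometrium markers, 3 were called higher and 1 lower, against 4.58% and 7.48% of all genes. VIM, an intermediate filament of stromal cells, rose by 0.65 (adjusted p = 0.00468 in limma) without overlap between the groups, and was called with each of the 12 sows left out in turn. DCN, a proteoglycan of the stroma, rose by 0.31 (adjusted p = 0.0330), while its second probe set had the opposite sign, and ACP5, the secreted uteroferrin, rose by 1.05 (adjusted p = 0.0287). ESR1, the oestrogen receptor, fell by 0.58 (adjusted p = 0.0257). With 1 sow left out, DCN and ACP5 were called in 5 of 12 fits each and ESR1 in 7.

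The mean level of 11 macrophage and monocyte markers was 6.75 to 7.27 in the 6 pregnant sows and 6.53 to 6.64 in the non-pregnant sows other than sow 7, which had 8.57. With all 12 sows 0 of these markers were called, and without sow 7 there were 2 called higher in pregnant sows, with CD14 at 0.89 (adjusted p = 0.0112 in limma). Fits with 1 sow left out called 951 to 2626 of all 23999 probe sets for pregnancy, so the 2 calls are not read as a result on macrophages. The part of the epithelial, neutrophil, stromal and macrophage marker changes in the IL1A result was not tested.

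Within breeds, the IL1A difference was -2.09 ± 0.27 (SE) in Landrace and -0.82 ± 0.27 (SE) in Yorkshire sows on IL1A-S1. On IL1A-S2 it was -1.60 ± 0.25 (SE) and -0.96 ± 0.25 (SE). The Landrace differences, 4.24-fold and 3.03-fold lower, were called with adjusted p in limma of 0.0121 and 0.0195, in a comparison that called 0.479% of all probe sets lower and 1.03% in all. The Landrace groups of 3 did not overlap on either probe set, a pattern that 9.5% of all probe sets had. With 1 sow left out the Landrace difference stayed between -2.17 and -1.97 on IL1A-S1 and between -1.75 and -1.45 on IL1A-S2, but some calls were lost. On IL1A-S1 the adjusted p was 0.0568 without sow 9 and 0.0507 without sow 10. On IL1A-S2 it was 0.0778, 0.0775, 0.0716 and 0.0679 without sow 5, 6, 9 and 10, and without sows 7 and 10 together it was 0.0515 on IL1A-S1 and 0.0668 on IL1A-S2, at differences of -2.17 and -1.67.

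The Yorkshire differences had adjusted p of 0.198 and 0.130 in limma and 95% intervals of -1.42 to -0.21 and -1.52 to -0.40. That comparison called 0 of the 23999 probe sets (0%), and 15.3% had an unadjusted p under 0.05. The Yorkshire groups did not overlap on IL1A-S2, as in 9.23% of all probe sets, and overlapped on IL1A-S1 through sow 12. Without sow 12 the comparison called 1381 probe sets, and IL1A was among them at -1.14 (adjusted p = 0.0185) and -1.24 (adjusted p = 0.0137). With array weights it also called IL1A, at -1.04 (adjusted p = 0.0186) and -0.99 (adjusted p = 0.0126).

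Whether the pregnancy difference itself differed between the breeds was tested as an interaction, the Landrace minus the Yorkshire difference. It was -1.27 ± 0.39 (SE, 95% interval -2.12 to -0.42) on IL1A-S1 and -0.64 ± 0.36 (SE, -1.43 to 0.15) on IL1A-S2. The unadjusted p was 0.00729 and 0.102, and after adjustment over all probe sets in limma neither was called (adjusted p = 0.9996 for both). The interaction called 0 probe sets in all, with 4.01% at an unadjusted p under 0.05, so a difference between the breeds in how far IL1A fell was not established. Leaving out single sows gave an interaction of -1.60 to -0.94 on IL1A-S1 and of -0.86 to -0.36 on IL1A-S2.

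From the lowest mean, the order of the groups on both IL1A probe sets was pregnant Landrace, pregnant Yorkshire, non-pregnant Yorkshire and non-pregnant Landrace. The means on IL1A-S1 were 5.16 ± 0.21, 6.09 ± 0.65, 6.90 ± 0.33 and 7.24 ± 0.092 (SD, n = 3 each). On IL1A-S2 they were 5.75 ± 0.18, 6.32 ± 0.50, 7.28 ± 0.35 and 7.35 ± 0.30 (SD, n = 3 each). Among pregnant sows, Landrace minus Yorkshire was -0.93 (adjusted p = 0.166 in limma, 95% interval -1.53 to -0.33) and -0.57 (adjusted p = 0.397, -1.12 to -0.0100). Among non-pregnant sows it was 0.34 (adjusted p = 0.638, -0.26 to 0.94) and 0.073 (adjusted p = 0.936, -0.48 to 0.63). None of these breed differences was called, in comparisons that called 0.733% and 1.04% of all probe sets.

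IL1B was alike in 10 of the sows and high in 2 Landrace sows, the non-pregnant sow 7 and the pregnant sow 10. On IL1B-S1, IL1B measured 6.74, 6.52 and 6.60 in the non-pregnant Yorkshire sows 1, 3 and 11, and 6.49, 9.74 and 6.36 in the non-pregnant Landrace sows 5, 7 and 9. It measured 6.87, 6.54 and 6.45 in the pregnant Yorkshire sows 2, 4 and 12, and 6.66, 6.63 and 9.52 in the pregnant Landrace sows 6, 8 and 10. The other 10 sows thus spanned only 0.51, and sows 7 and 10 lay 7.35-fold and 6.28-fold above the highest of them.

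On IL1B-A1, IL1B measured 4.38, 4.31 and 4.03 in the non-pregnant Yorkshire sows 1, 3 and 11, and 4.54, 6.50 and 4.40 in the non-pregnant Landrace sows 5, 7 and 9. It measured 4.64, 4.51 and 4.22 in the pregnant Yorkshire sows 2, 4 and 12, and 4.44, 4.69 and 7.29 in the pregnant Landrace sows 6, 8 and 10. The same sows stood out, 3.51-fold and 6.05-fold above the highest of the others. In those 10 sows this probe set lay between the 17.3rd and 24.7th percentile of its array. Values this low can hold much background, which was not measured here, so fold differences against them may be too small. On IL1B-S1 the 10 sows lay between the 51.4th and 60.3rd percentile.

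The pregnancy groups overlapped fully for IL1B. The difference was 0.033 ± 0.60 (SE, 95% interval -1.27 to 1.34) on IL1B-S1 and 0.27 ± 0.47 (SE, -0.75 to 1.29) on IL1B-A1. The adjusted p in limma was 0.986 and 0.795, and two-sided exact permutation over all splits gave p = 0.844 and p = 0.509. Intervals this wide do not show that IL1B was the same in both groups. Without sows 7 and 10 the differences were 0.086 (adjusted p = 0.674) and 0.17 (adjusted p = 0.392). With sow 10 alone left out both turned negative, at -0.40 and -0.14, and with sow 7 alone left out they were 0.52 and 0.57.

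By breed, IL1B was higher on average in Landrace than in Yorkshire sows by 0.95 (adjusted p = 0.422 in limma) and 0.96 (adjusted p = 0.277), and neither was called, against 5.15% of all probe sets. Both sows with high IL1B were Landrace. Without them the breed difference was -0.084 and 0.17 on IL1B-S1 and IL1B-A1. The 6 Yorkshire sows averaged 6.62 ± 0.16 (SD) and the 6 Landrace sows 7.57 ± 1.60 (SD) on IL1B-S1. Within Landrace the pregnancy difference was 0.072 (95% interval -1.87 to 2.01) on that probe set and 0.33 (-1.19 to 1.84) on the other, and within Yorkshire it was -0.0051 (-1.94 to 1.93) and 0.22 (-1.30 to 1.73).

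From the lowest mean, the groups on IL1B-S1 were pregnant Yorkshire at 6.62 ± 0.22, non-pregnant Yorkshire at 6.62 ± 0.11, non-pregnant Landrace at 7.53 ± 1.92 and pregnant Landrace at 7.60 ± 1.66 (SD, n = 3 each). On IL1B-A1 they were non-pregnant Yorkshire at 4.24 ± 0.19, pregnant Yorkshire at 4.46 ± 0.21, non-pregnant Landrace at 5.15 ± 1.18 and pregnant Landrace at 5.47 ± 1.58 (SD, n = 3 each). Neighbouring groups in both orders overlapped. The IL1B probe sets correlated with each other at r = 0.962 over the 12 sows and at r = 0.334 over the 10 without sows 7 and 10.

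The sows with high IL1B differed from each other in the mean levels of the macrophage, T and NK cell and trophoblast marker lists. Some single markers were high in both. On the endometrium list both were lowest, with 9.97 in sow 7 and 9.94 in sow 10. The other 10 sows had 10.02 to 10.28 on that list. On the epithelium and neutrophil lists sows 7 and 10 lay within the range of the other 10 sows. In sow 7 the mean level of 11 macrophage and monocyte markers was 8.57, against 7.19 in sow 10 and 6.53 to 7.27 in the other 10 sows, and 10 of the 11 were highest of all sows in sow 7. CD163, a scavenger receptor of macrophages, was 11.1 in sow 7, 6.91 in sow 10 and 6.69 to 7.57 in the other 10 sows, and CD14, the monocyte co-receptor for lipopolysaccharide, was 7.62 in sow 7, 6.68 in sow 10 and 4.92 to 6.26 in the others. Sow 10 was thus also above the other 10 sows for CD14, and likewise for the Fc receptor chain FCER1G, with 7.10 against at most 6.97 and 8.59 in sow 7. The 9 T and NK cell markers averaged 6.46 in sow 7, 5.58 in sow 10 and 5.18 to 5.81 in the others, and 7 of them were highest in sow 7. For comparison, 15.2% of the 6765 genes with a symbol were highest in sow 7 and 7.60% in sow 10. With all 12 sows, no macrophage or T and NK cell marker was called between pregnant and non-pregnant sows, and the macrophage calls without sow 7 are given above.

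In sow 10 the mean level of 15 conceptus trophoblast markers was 6.85, against 5.42 in sow 7 and 5.09 to 5.66 in the other 10 sows, and 9 of the 15 were highest in sow 10. The rest, GATA2, CYP19A1, CYP19A3, TTR, POU5F1 and AFP, lay within the range of the other 10 sows. Only CYP19A3 was called for pregnancy, lower in pregnant sows (6.67% of the list, beside 7.48% of all genes). It was 7.89 in sow 10 and 7.62 to 8.29 in the other 10 sows, and was called in 3 of 12 fits with 1 sow left out. Interferon gamma (IFNG), which the pig trophoblast secretes around this time, was 12.6 in sow 10, 4.41 in sow 7 and at most 8.21 in the others. The pregnancy-associated glycoprotein PAG6, a trophoblast product, was 11.2 in sow 10, 4.52 in sow 7 and at most 5.92 in the others. The transcription factors GATA3 and TFAP2C, used by trophoblast and by other epithelia, were 7.58 and 6.07 in sow 10, and no more than 5.83 and 4.92 in the others apart from sow 7, which had 6.17 and 5.42. IFNG and PAG6 were chosen after their values were seen. The part of the immune cell markers in sow 7 and of the trophoblast markers in sow 10 in the IL1B levels was not tested.

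**Figure D3:**
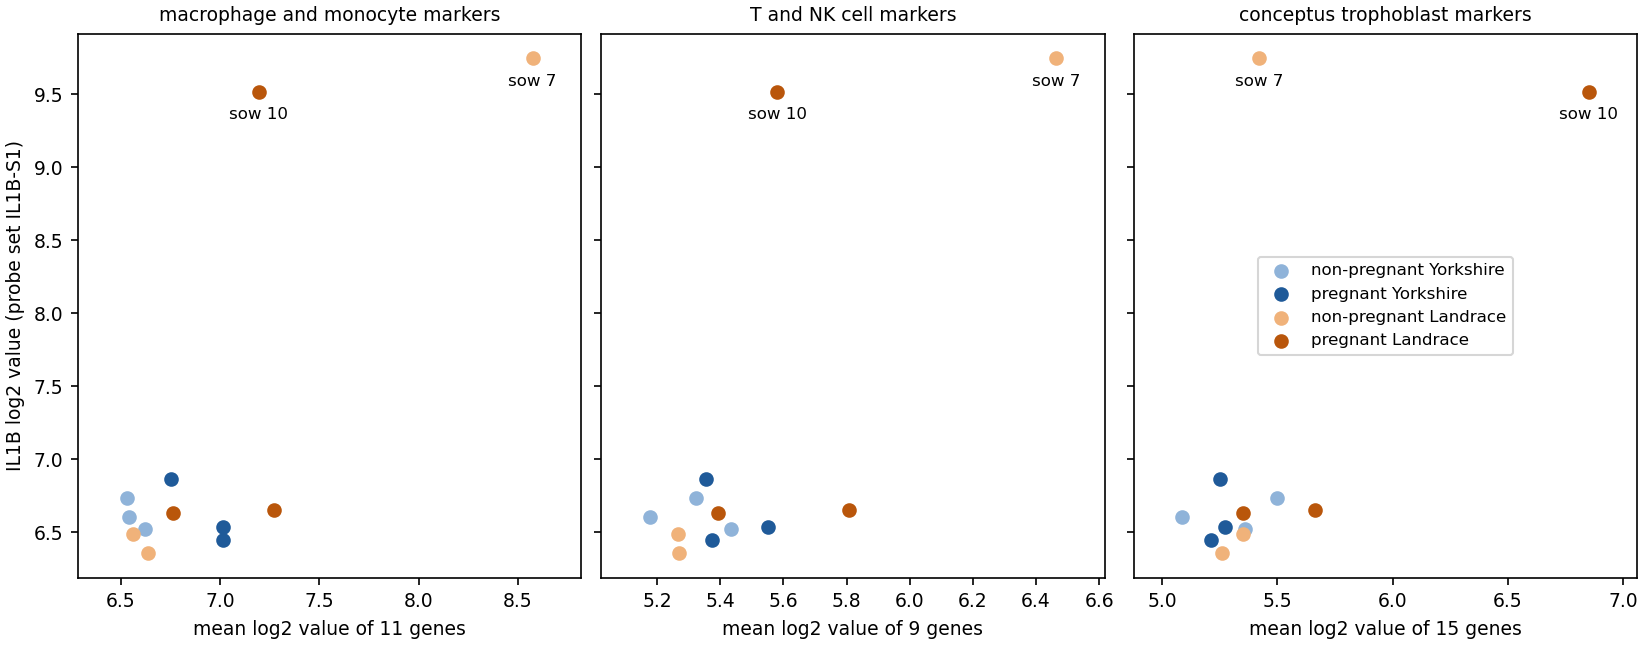
IL1B log2 value on IL1B-S1 (vertical axis) against the mean log2 value of 3 marker lists (horizontal axes), 1 point per sow, coloured by group. Sow 7 stands high for the macrophage and T and NK cell lists and sow 10 for the trophoblast list, while the other 10 sows lie between 6.36 and 6.87 for IL1B.

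IL1A did not stand out in these sows. On IL1A-S2 it was 7.06 in sow 7, the second lowest of the non-pregnant sows, and 5.59 in sow 10, the lowest of the pregnant sows. Between IL1A-S2 and IL1B-S1, Pearson r over the 12 sows was -0.23 (permutation p = 0.453, unadjusted). The Spearman rank correlation was -0.32 (permutation p = 0.310, unadjusted). Within the 6 pregnant and the 6 non-pregnant sows r was -0.51 and -0.41 (exact permutation p = 0.210 and 0.608). Sows 7 and 10 lay apart for IL1B and the groups are small, so these values do not show that the ligands were unrelated.

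Of the remaining ligands of the family, IL18, which is also cut by caspase-1, was the only other measured: 3 of 11 names on the list of ligands and antagonist had a probe set, and 1, IL1A, was called lower. The antagonist IL1RN, IL33 and the interleukins of the IL36 group were not analysed here. IL18 measured 6.33, 6.23 and 5.73 in the non-pregnant Yorkshire sows and 6.26, 8.73 and 5.02 in the non-pregnant Landrace sows 5, 7 and 9. It measured 6.06, 6.16 and 5.75 in the pregnant Yorkshire and 6.42, 6.35 and 5.46 in the pregnant Landrace sows. Sow 7 was thus high for IL18 too, and sow 10 was not. The difference was -0.35 (95% interval -1.39 to 0.68, adjusted p = 0.732 in limma), and 0.13 without sow 7.

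Of 10 receptors and binding proteins, 4 were measured and 0 were called in either direction, beside 4.58% of all 6765 genes called higher and 7.48% called lower. The receptor of both ligands, IL1R1, had means of 7.63 ± 0.46 (SD, n = 6) in pregnant and 7.41 ± 0.30 (SD, n = 6) in non-pregnant sows, a difference of 0.22 (95% interval -0.16 to 0.60, adjusted p = 0.506). SIGIRR, an inhibitory receptor of the family, differed by 0.016 (-0.15 to 0.19, adjusted p = 0.934). The IL18 receptor chain IL18R1 differed by -0.21 (-0.45 to 0.020, adjusted p = 0.263) and the soluble IL18 inhibitor IL18BP by 0.0065 (-0.32 to 0.34, adjusted p = 0.989). The decoy receptor IL1R2 and the co-receptor IL1RAP were not analysed here.

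Of 18 genes of processing and release, 8 were measured, and 1 rose (12.5%, beside 4.58% of all genes) and 0 fell. TXNIP, a thioredoxin-binding protein that can activate the NLRP3 inflammasome, measured 11.7 to 12.2 in the non-pregnant and 12.3 to 12.7 in the pregnant sows, without overlap, as in 1.3% of all probe sets. Its difference was 0.57 ± 0.097 (SE, adjusted p = 0.00734). CASP1, the protease that cuts the IL1B precursor, was 8.59 in sow 7 and 8.01 in sow 10 and ran from 6.23 to 8.58 in the others. Its pregnancy difference was not called, and it is named here after its values were seen. The median difference of the list was 0.076, beside -0.028 over all genes.

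Of 33 genes of receptor signalling to NF-kB, 17 were measured and 0 were called, beside 4.58% of all genes higher and 7.48% lower, with a median difference of 0.050. FOS, an early response transcription factor, had the smallest p of them. It measured 9.02, 7.80 and 8.78 in the non-pregnant Yorkshire sows and 10.5, 11.5 and 9.87 in the non-pregnant Landrace sows. It measured 8.09, 8.76 and 8.63 in the pregnant Yorkshire and 8.19, 6.97 and 7.95 in the pregnant Landrace sows. FOS was thus high in non-pregnant Landrace sows, which did not overlap with the pregnant Landrace sows, while the Yorkshire groups overlapped. The difference was -1.47 (adjusted p = 0.100) over both breeds, -2.90 (adjusted p = 0.0178) in Landrace and -0.042 (adjusted p = 0.983) in Yorkshire. The Landrace call was lost without sow 5, 6 or 10 (adjusted p up to 0.0681), while the difference stayed between -3.27 and -2.46 with any 1 sow left out. PELI1, a ubiquitin ligase of the IRAK complex, differed by 0.20 (adjusted p = 0.221).

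Of 33 target genes of interleukin-1 and NF-kB, 23 were measured, and 0 rose and 1 fell (4.35%, beside 7.48% of all genes), with a median difference of -0.0026. PTGES, the synthase of prostaglandin E2, measured 8.29, 7.98 and 8.40 in the non-pregnant Yorkshire and 8.08, 7.93 and 8.73 in the non-pregnant Landrace sows. It measured 7.50, 7.55 and 8.16 in the pregnant Yorkshire and 6.71, 6.91 and 7.04 in the pregnant Landrace sows. PTGES was lower in all pregnant sows except sow 12, which lay among the non-pregnant sows. It fell by 0.92 ± 0.20 (SE, adjusted p = 0.0177), and the call held with each of the 12 sows left out in turn. Within Landrace it fell by 1.36 (adjusted p = 0.0216), a call lost without sow 5, 6, 9 or 10 (adjusted p up to 0.0968), while the difference stayed between -1.52 and -1.12 with any 1 sow left out.

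PTGS2, the inducible cyclooxygenase upstream of PTGES, was chosen after its values were seen. Its difference was -0.74 (adjusted p = 0.189 in limma) over both breeds and 0.12 (adjusted p = 0.913) within Yorkshire. The non-pregnant Yorkshire sows 1, 3 and 11 measured 7.07, 6.17 and 7.36, and the pregnant Yorkshire sows 6.73, 7.33 and 6.90. Within Landrace the difference was -1.59 (adjusted p = 0.0372). There the non-pregnant sows 5, 7 and 9 measured 8.78, 9.39 and 8.49, and the pregnant sows 7.21, 7.15 and 7.53. Leaving out any 1 of sows 1, 2, 5, 6, 7, 8, 9 and 10 ended that call, with adjusted p up to 0.131, while the difference stayed between -1.79 and -1.34. Leaving out a Yorkshire sow leaves the Landrace difference as it is and changes only the estimated spread and the adjustment.

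**Figure D4:**
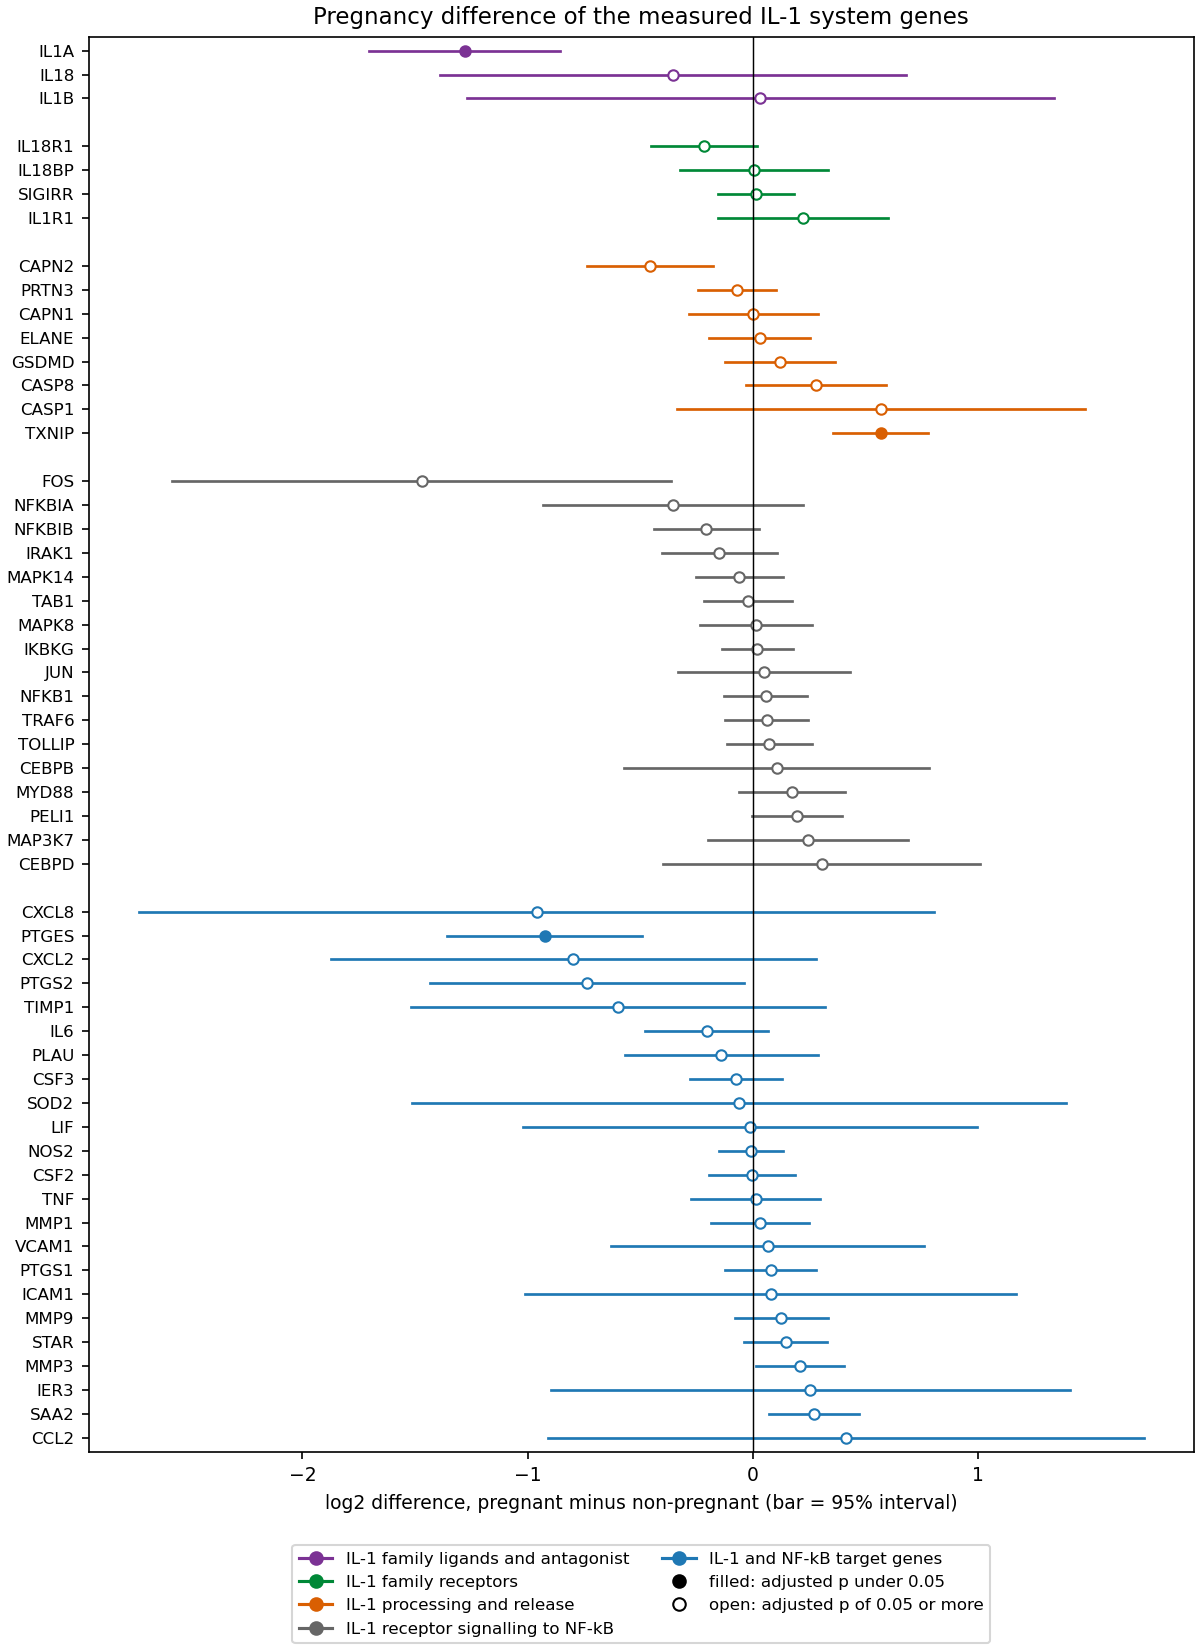
Log2 difference, pregnant minus non-pregnant (horizontal axis, with 95% intervals), of each measured gene of 5 lists; for a gene with several probe sets the one with the highest mean is drawn, filled points passed an adjusted p of 0.05. IL1A and PTGES were lower, TXNIP was higher, and the widest intervals belong to genes such as CXCL8 and IL1B that stood high in single sows.

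Many target genes were highest in sow 7, while the share highest in sow 10 was near that of all genes. Of the 23 measured, 15 were highest of all sows in sow 7 (65.2%, beside 15.2% of all genes). In sow 10, 2 were highest, MMP3 and SAA2 (8.70%, beside 7.60% of all genes). MMP3 was 4.81 and SAA2 8.64 in sow 10, against at most 4.68 and 8.59 in the other 10 sows. CCL2 and IL6 were 8.53 and 4.23 in sow 10, against at most 8.42 and 4.19 in these sows, and 10.7 and 4.69 in sow 7. The mean level of the list was 7.60 in sow 7, 6.28 in sow 10 and 5.86 to 6.39 in the other 10 sows. The neutrophil attractants CXCL8 and CXCL2 were 8.64 and 7.67 in sow 7, 2.96 and 3.98 in sow 10 and at most 3.11 and 5.06 in the others. The mitochondrial superoxide dismutase SOD2 was 12.1 in sow 7, 8.54 in sow 10 and 7.05 to 8.95 in the others. CXCL8, CXCL2, SOD2 and the genes named for sow 10 were chosen after their values were seen. Of 17 signalling genes, 8 were highest in sow 7 (47.1%, beside 15.2% of all genes) and 0 in sow 10 (beside 7.60%). Among those highest in sow 7 was NFKBIA, the NF-kB inhibitor, with 10.0 in sow 7, 7.86 in sow 10 and 8.22 to 8.85 in the others.

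Among the 6765 genes, those whose values over the 12 sows were most like IL1A were found by Pearson correlation, as a description over sows that share pregnancy and breed. For IL1A-S1 the highest r, from 0.918 to 0.948, belonged to ACAT2, IFRD2, MSMO1, BCAT1 and MYL6. For IL1A-S2, with r from 0.942 to 0.977, they were UPK3BL2, ACAT2, HMGCS1, WDR18 and PNP. ACAT2, HMGCS1 and MSMO1 are enzymes of the sterol pathway. ACAT2, near the top for both probe sets, averaged 7.02 in pregnant and 8.25 in non-pregnant sows, and UPK3BL2 averaged 7.50 in non-pregnant sows and differed by -1.50 in pregnant sows (adjusted p = 0.00753 in limma). The lowest r were -0.933 for PDK4, -0.922 for SERINC3 and -0.901 for S100B with IL1A-S1, and -0.946 for S100B, -0.942 for PMM1 and -0.940 for NDFIP1 with IL1A-S2. PDK4, a kinase that inhibits pyruvate dehydrogenase, averaged 10.0 in pregnant and 8.44 in non-pregnant sows. Without sows 7 and 10, which did not stand out for IL1A, r over the 10 remaining sows was between 0.917 and 0.984 for the highest genes. Sow 12 lay far above the other pregnant sows for UPK3BL2 (7.30, nearest 6.15) and HMGCS1 (8.32, nearest 7.28). The correlations were not taken without sow 12, so how far they rest on it is not known.

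With the 4 group means taken off, which leaves the differences between sows of 1 group, the genes most like IL1A were others. For IL1A-S1 they were CSNK1G2, OGFR, POFUT1, AARS and KIAA0930, with r from 0.866 to 0.921. For IL1A-S2 they were LOC100513863, ATP2C1, UPK3BL2, HMOX2 and TMEM43, with r from 0.877 to 0.946. Only UPK3BL2, a uroplakin-like gene, was among the 5 highest for IL1A-S2 by both measures. Sow 12 also lay far above the other pregnant sows for CSNK1G2 (9.49, nearest 9.29) and LOC100513863 (8.57, nearest 7.66). These within-group correlations were not taken without sow 12 either.

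The genes most like IL1B followed sows 7 and 10. For IL1B-A1 they were UFD1, TFAP2C, SDF2L1, GLIPR1 and GJB1, with r from 0.891 to 0.945, and for IL1B-S1 they were NPM3, UFD1, PCLAF, GLIPR1 and SDF2L1, with r from 0.881 to 0.915. SDF2L1, a chaperone partner of the endoplasmic reticulum, was 8.05 in sow 7, 8.20 in sow 10 and 6.64 to 7.44 in the others. Without these sows the same genes had r of 0.12 to 0.60 and -0.39 to 0.34 over the remaining 10 sows. The lowest r belonged to TSPAN3 (-0.927), NCBP2 (-0.885) and PHTF1 (-0.855), and to PHTF1 (-0.908), TSPAN3 (-0.891) and GAMT (-0.874). Within groups the highest were SDF2L1, RPL7L1, GATA3, UFD1 and TFAP2C (r from 0.935 to 0.945), and NPM3, DDX39A, GLIPR1, NPL and MANF (0.906 to 0.959). These correlations rest on 2 sows and say little on the other 10.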

How the data were processed

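The deposited values were on the log2 scale, 1 per probe set and sow. Per the submitters' processing notes, RMA, affy and limma were used, with no version named. RMA equalises the arrays' distributions, so that each value is relative to the rest of its array. Of 24123 probe sets, 124 controls were left out. Symbols came from the platform annotation: 10069 probe sets had 1 symbol, 198 several and 13732 none.

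Differences were fitted with limma 3.58.1 in R 4.3.3 (two-sided, Benjamini-Hochberg over 23999 probe sets). Pregnancy and breed were additive terms (9 residual degrees of freedom), and the within-breed and interaction contrasts came from a fit of 4 groups (8 degrees). The procedure was tested on simulated data. Each sow was 1 replicate. Members, lists and tests were chosen with earlier results of these data known. A gene with several probe sets was represented by the one with the highest mean. Named genes were all members, measured ligands and receptors, up to 5 called genes per list (otherwise the 2 of smallest p), and the genes of highest and lowest correlation with each member. The lists covered conceptus trophoblast, macrophage, neutrophil, epithelium, T and NK cell and endometrium markers. Alternatives were cyclic loess, median centring, leaving out dim probe sets (above the median of all values on fewer than 3 arrays), array weights, a trended and robust prior, a fit that ignores breed, averaged within-breed contrasts, stricter thresholds, exact permutation and leaving out sows. The number of arrays limits the precision.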

Additional observations from a re-analysis of the deposited data

Results flagged for a closer look

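Both IL1B probe sets had a single sow far from the other 5 of its pregnancy group, with a gap to the nearest sow that took up more of the group's range than Dixon's 95% critical value for 6 sows allows. On IL1B-S1, non-pregnant sow 7 was at 9.74 with the nearest sow at 6.74 (gap over range 0.888), and pregnant sow 10 was at 9.52 with the nearest at 6.87 (0.864). On IL1B-A1, non-pregnant sow 7 was at 6.50 with the nearest at 4.54 (0.795), and pregnant sow 10 was at 7.29 with the nearest at 4.69 (0.848). Chance flags about 1 in 20 groups, and the groups of the 2 probe sets are the same sows, so these 4 values are not independent. Of the 8 groups of members 4 were past the value, none of them for IL1A, and of 122 groups of the other named genes 31 were. The other named genes include those chosen for their correlation with IL1B, so their count is not a background. A share over all probe sets was not taken, so how unusual the IL1B values are in this series is not known.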

How the results depend on the processing

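The fall of IL1A in pregnant sows kept its direction and its side of the threshold under all 23 alternatives run on each probe set, at -1.67 to -1.33 for IL1A-S1 and -1.49 to -1.18 for IL1A-S2. No alternative called IL1B. IL1B-A1 was too dim to enter the fit without dim probe sets. The settings without sows 7 and 10 and without sows 7 and 12 were chosen after seeing the data. No paired analysis was possible because the labels name no pairs and the groups share no replicate number.

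With 1 sow left out, the IL1B difference ran from -0.14 to 0.57 on IL1B-A1 and from -0.40 to 0.52 on IL1B-S1. Within Landrace these ranges were -0.58 to 1.00 and -0.89 to 1.18, for the interaction -0.80 to 0.79 and -0.88 to 1.18, within Yorkshire -0.13 to 0.079 on IL1B-S1, and for breed among non-pregnant sows -0.20 to 1.50 on that probe set and -0.085 to 0.26 for IL1A on IL1A-S2. IL18 ran from -0.69 to 0.13, IL18BP from -0.061 to 0.16 and SIGIRR from -0.032 to 0.061. Without sows 7 and 10, the breed difference of IL1B-S1 turned to -0.084, the interaction of IL1B-A1 to -0.12 and the pregnancy difference of IL18 to 0.23, and without sows 7 and 12 the last was 0.22. The Yorkshire difference of IL1B-S1 was 0.028 after cyclic loess and 0.14 with array weights. Centring on the median turned IL18BP to -0.012 and SIGIRR to -0.0021. None of these values was called under any alternative.

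Counts of called probe sets moved more. With array weights they were 3640 for pregnancy, 3142 within Yorkshire, 1176 within Landrace, 2 for the interaction, 720 for breed in pregnant and 726 in non-pregnant sows. The pregnancy count was 1165 without the breed term, 3213 without sows 7 and 12, 323 at an adjusted p under 0.01 and 252 with a log2 difference of at least 1. Without dim probe sets, 59 were called within Yorkshire and 389 within Landrace. Without sows 7 and 10, 603 were called for breed, 4 within Yorkshire and 68 within Landrace, and 29 for the interaction without sows 7 and 12. With 1 sow left out the counts ran from 951 to 2626 for pregnancy, 820 to 1342 for breed, 0 to 1381 within Yorkshire, 13 to 560 within Landrace, 0 to 18 for the interaction, 34 to 244 for breed in pregnant and 84 to 429 in non-pregnant sows. The cause was not tested.

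Of the processing genes, 1 was called lower after centring, without dim probe sets, with array weights and without sows 7 and 12, and 0 to 1 with 1 sow left out. Of the signalling genes, 3 were called higher without sows 7 and 12 and 0 to 1 with 1 sow left out, and 1 was called lower from the average of the within-breed contrasts. Of the target genes, 1 was called higher after cyclic loess, with array weights and without sows 7 and 10, 2 without sows 7 and 12, and 0 to 1 with 1 sow left out. Values low on the array limit what IL1B-A1 can show.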
